A study of Mus musculus with 9 samples.

Results

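This account describes 10 listed genes of glutathione metabolism and antioxidant defence in mouse lung: Gclc, Gclm, Gsr, Nqo1, Hmox1, Txnrd1, Prdx1, Sod3, Cat and Gpx3. Every probe set (a group of short probes against one transcript on an expression array) that the probe annotation gives to a single one of these genes was taken, whatever its values. That rule found 9 of the 10 genes through 11 probe sets, among 8251 genes and 12422 probe sets on the array. Prdx1, a peroxiredoxin, was skipped because both of its probe sets carry several gene symbols. Of the 11 probe sets, 9 probe sets of 8 genes were bright enough to be tested. The remaining pair, both for Nqo1, were not well above background.

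Total RNA from lungs of C57BL6 mice was hybridised to 9 one-colour arrays, 3 per group, in a model of asthma driven by ovalbumin (OVA). The saline group was challenged with saline in place of OVA. The OVA group carries the mark of 24 h in its titles, and the agonist group carries OVA, 24 h and an agonist of EP3, a receptor for prostaglandin E2. The saline titles carry no time, and the agonist's name, dose and route, the sensitisation, and the age and sex of the mice are not given here. Nothing says that the 3 arrays of a group came from separate mice, so p-values measure the spread between these arrays, which may be technical. Whole lung was measured, so fewer cells of a type and less RNA per cell cannot be told apart.

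Glutathione is a small thiol made in a first, rate-limiting step by glutamate-cysteine ligase, whose catalytic subunit is Gclc and whose modifier subunit is Gclm. Glutathione reductase (Gsr) returns oxidised glutathione to its reduced form. The transcription factor NRF2 (Nfe2l2) binds antioxidant response elements in the promoters of many such genes, Nqo1, Hmox1, Txnrd1, Gclc and Gclm among them, when oxidants or electrophiles release it from KEAP1. Superoxide dismutases turn superoxide into hydrogen peroxide, which catalase (Cat), glutathione peroxidases and peroxiredoxins remove. In lung, Sod3 works outside cells, bound to the matrix, and Gpx3 is the secreted, plasma form of glutathione peroxidase.

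The core of the antioxidant response element was looked for in RefSeq promoter windows of GRCm38.p6, which run from 250 bases before to 50 after a transcript's start. The motif searched was TGACNNNGC, which reads GCNNNGTCA on the other strand; both strands were read, and overlap with other motifs was not examined. It stood in 4071 of 32851 windows, or 12.4% of all. Of the listed genes kept from the array, Gclm, Nqo1, Txnrd1, Cat and Gpx3 had 7 windows there. The motif was in 2 of the 7, for Gclm and for 1 of 3 starts of Txnrd1. Gclc, Gsr, Hmox1 and Sod3 had no entry. The 2 hits are shown beside that of Me1, another gene of the pathway lists, a gene picked for display after its result was seen: Me1 rose with OVA while Gclm and Txnrd1 were not called. The motif stood in 1 of 7 windows (14.3%) of the 5 called pathway genes outside the listed ones, a share close to that of all windows. That window was at 1 of the starts of Me1, and no window of Prdx4, Tkt, Glrx or Msrb1 held it. Over all pathway and listed genes, called or not, the motif stood in 19 of 89 windows (21.3%). Among them was the window of Prdx1, skipped above, with the motif from base -133 to -125. Capitals mark the motif, and each stretch reads 5′ to 3′ on the gene's strand, at chr3:122245398-122245456 on the plus strand for Gclm, chr10:82859089-82859147 on the plus strand for Txnrd1 and chr9:86695912-86695945 on the minus strand for Me1.
Gclm: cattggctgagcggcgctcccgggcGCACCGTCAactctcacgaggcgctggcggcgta
Txnrd1: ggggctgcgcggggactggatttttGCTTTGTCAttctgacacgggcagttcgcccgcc
Me1: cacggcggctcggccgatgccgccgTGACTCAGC
The match lies from base -134 to -126 relative to the start of Gclm and from -92 to -84 relative to that of Txnrd1. In Me1 it spans the start, from -6 to 3. A match of letters is a description of these windows and not a measured binding site.

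Values are intensities brought to a common trimmed mean, and a value of 44.7 (the 40th percentile of all values) was taken as the limit of detection. Between 59.6% and 60.6% of probe sets on an array lay above it. Correlation between arrays ran from 0.879 to 0.926 within groups and from 0.814 to 0.923 between groups. Agonist array 3 stood apart from its group: on the first principal component, which held 36.1% of the variance, it lay at 11, the other agonist arrays at -24.0 and -22.7, the saline arrays between -30.9 and -21.1, and the OVA arrays between 29.6 and 44.5. Summed goblet cell markers, of which Spdef was below the limit everywhere, were 139 to 188 with saline, 6459 to 7812 with OVA, and 375, 910 and 5823 on the agonist arrays. Agonist results of single probe sets are therefore also given without that array. The lung was recognisable by its markers, since all 4 alveolar type 2 cell, all 5 alveolar type 1 cell and all 5 club cell markers on the array were tested and none lay below the limit on every array.

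After OVA, transcripts for the catalytic subunit of glutathione synthesis rose and one catalase probe set fell, each by close to 2-fold, while no call was made for the other 7 of the 9 tested probe sets. Gclc was 1.99-fold higher in OVA than in saline lung, and Cat was 1.98-fold lower by its brighter probe set. The best known NRF2 targets Hmox1, Txnrd1 and Gclm were not called, with changes of 0.07, -0.02 and 0.11 on the log2 scale. With the EP3 agonist the Cat probe set was 1.83-fold higher than with OVA alone, and it was the single call among these genes in that comparison. Over all 7920 probe sets tested, 9.49% were called between OVA and saline, 2.75% between agonist and OVA and 0.0758% between agonist and saline, each at an adjusted p under 0.05 from limma with Benjamini-Hochberg adjustment. The genes' 2 calls of 9, 1 of 9 and 0 of 9 are read against those shares. In the last comparison 1 of the 9, Gclc, had an unadjusted limma p under 0.05, as had 611 of all 7920. The median change between OVA and saline was 0.07 (log2) over the 9 probe sets and -0.08 over all probe sets tested. The comparisons share arrays, since OVA minus saline and agonist minus OVA both contain the OVA arrays.

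**Figure D1:**
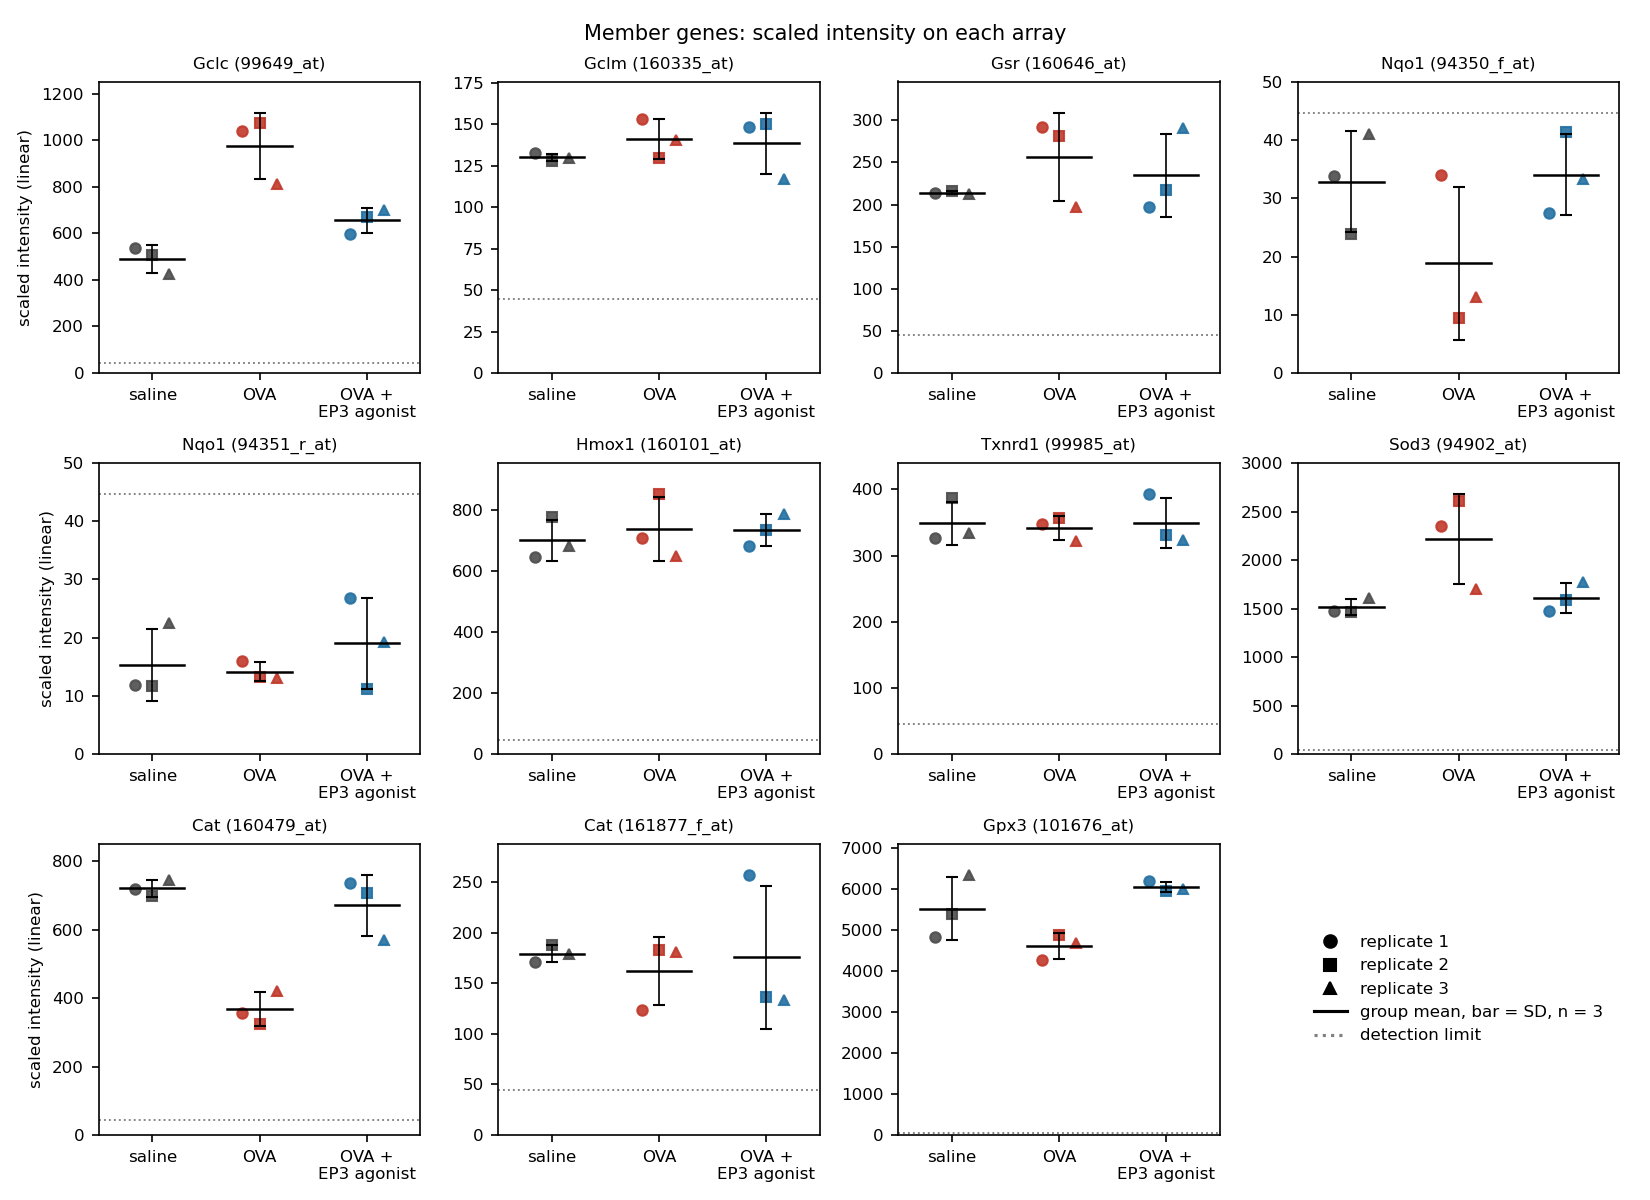
Scaled intensity (linear axis) of each probe set of the listed genes on the 9 arrays. Points are single arrays, lines group means, bars the SD and the dotted line the detection limit. The 3 OVA arrays of Gclc (812 to 1076) lie above, and those of Cat 160479_at (324 to 421) below, every saline array, while those of Hmox1 and Txnrd1 overlap the saline arrays.

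Gclc, the catalytic subunit of glutamate-cysteine ligase, read 539, 507 and 424 with saline, 1038, 1076 and 812 with OVA, and 595, 669 and 702 with OVA and agonist (scaled intensity of 99649_at). The 3 groups did not overlap: saline was lowest, OVA highest and the agonist group in between. Group means were 490 ± 59.3, 975 ± 143 and 656 ± 54.8 (SD, n = 3 each). OVA minus saline was 0.99 ± 0.15 on the log2 scale (SE, 95% interval 0.65 to 1.33; limma adjusted p = 0.0133). The call ended when the first or the second OVA array was left out, with a limma adjusted p of up to 0.0631. Over all probe sets 1.02% and 1.32% were called in those fits, in place of 9.49%. Agonist minus OVA was -0.57 ± 0.15 (interval -0.90 to -0.23), or 1.48-fold lower, at an adjusted p of 0.0750, and did not pass the threshold. It passed with a filter at the 60th percentile (adjusted p = 0.0479) and with an intensity trend and robust prior (adjusted p = 0.0464). Without the third agonist array that change was -0.62 with an adjusted p of 0.0748. Agonist minus saline was 0.42 (interval 0.09 to 0.76; adjusted p = 0.532), so the intermediate level was not separated from either neighbour by the test across all probe sets. Groups that do not overlap were common on these arrays, at 37.6% of probe sets between OVA and saline and 29.9% between agonist and OVA. Between agonist and saline, 1084 of the 7920 tested probe sets did not overlap.

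Gclm, the modifier subunit that raises the enzyme's affinity for its substrate, read 133, 128 and 130 with saline, 153, 130 and 140 with OVA, and 149, 150 and 117 with agonist. The groups overlapped. Gclm differed between OVA and saline by 0.11 ± 0.12 (SE, interval -0.16 to 0.39; adjusted p = 0.564), an interval that leaves out the change of Gclc. The log2 ratio of Gclc to Gclm within an array, which does not depend on how arrays were scaled, was 2.02, 1.99 and 1.71 with saline, 2.76, 3.05 and 2.53 with OVA, and 2.00, 2.16 and 2.58 with agonist. All OVA arrays thus held a higher ratio than all saline arrays, by 0.88 on average. An exact two-sided permutation test gave p = 0.1, the smallest that 3 arrays against 3 allow. Between agonist and OVA the ratio differed by -0.54 (exact permutation p = 0.2).

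Gsr, which recycles oxidised glutathione, read 214, 216 and 212 with saline, 292, 281 and 197 with OVA, and 197, 217 and 291 with agonist. The saline arrays were nearly alike, and both other groups spread to either side of them. Gsr differed between OVA and saline by 0.24 (interval -0.20 to 0.68; adjusted p = 0.435) and agonist minus OVA -0.13 (interval -0.57 to 0.31; adjusted p = 0.722). Neither difference passed the test.

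Among the classical NRF2 targets, Nqo1, a quinone reductase, could not be measured. Its 9.43 to 41.3 on all 9 arrays, over both probe sets, lay below the limit of 44.7, and no fold is given. Hmox1, the inducible heme oxygenase, was well above the limit and read 647, 777 and 683 with saline, 710, 854 and 651 with OVA, and 683, 734 and 788 with agonist. The 3 groups of Hmox1 lay over one another. Their OVA minus saline difference was 0.07, with a 95% interval of 0.853-fold to 1.29-fold (adjusted p = 0.763), so a rise of the size seen for Gclc lies outside the interval. Agonist minus OVA was -0.0002 (interval -0.30 to 0.30; adjusted p = 0.999).

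Txnrd1, the cytosolic thioredoxin reductase, read 326, 386 and 333 with saline, 348, 357 and 322 with OVA, and 394, 332 and 324 with agonist. The ranges of its 3 groups were again shared. OVA minus saline was -0.02 (interval -0.29 to 0.24; adjusted p = 0.900) and agonist minus OVA 0.03 (interval -0.23 to 0.29; adjusted p = 0.902). Its direction turned with the scaling: OVA minus saline was 0.01 with arrays set to equal medians.

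Cat, the peroxisomal enzyme that splits hydrogen peroxide, read 720, 697 and 746 with saline by its brighter probe set, 160479_at. The OVA arrays read 356, 324 and 421, and the agonist arrays 736, 708 and 569. Every OVA array lay below every array of the other groups, and 2 of the 3 agonist arrays lay among the saline arrays. Group means were 721 ± 24.3, 367 ± 49.4 and 671 ± 89.3 (SD, n = 3 each). OVA minus saline was -0.98 ± 0.13 (SE, interval -1.29 to -0.67; limma adjusted p = 0.0115), and agonist minus OVA was 0.87 ± 0.13 (interval 0.56 to 1.18; adjusted p = 0.0356). Agonist minus saline was -0.11 (interval -0.42 to 0.20; adjusted p = 0.881), which does not show that the levels were equal.

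Single arrays decided the side of the threshold on which Cat fell. The OVA call ended without the first OVA array (limma adjusted p = 0.0534), where 1.02% of all probe sets were called in place of 9.49%. The agonist call ended, at an adjusted p of up to 0.131, without any single saline array, without the first or second OVA array and without the first or second agonist array. Without the third agonist array the agonist change of Cat was 0.98 with a limma adjusted p of 0.00940. Over all probe sets, 0.0895% to 0.46% were called in the fits that lost the agonist call, in place of 2.75%. The share was 6.7% without the third agonist array.

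The dimmer Cat probe set, 161877_f_at, did not show the fall. It read 171, 188 and 180 with saline, 124, 183 and 181 with OVA, and 258, 136 and 134 with agonist. The f in its name marks probes shared within a gene family in the maker's naming. For this probe set OVA minus saline was -0.17 ± 0.27 (SE, interval -0.79 to 0.46; adjusted p = 0.722) and agonist minus OVA 0.07 (interval -0.56 to 0.70; adjusted p = 0.902). The log2 ratio between the 2 probe sets was lower on every OVA array (0.82 to 1.53) than on every saline array (1.89 to 2.07), with an exact two-sided permutation p of 0.1, the smallest possible. The probe sets correlated at r = 0.304 over the 9 arrays.

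Gpx3, the secreted glutathione peroxidase, read 4821, 5387 and 6339 with saline, 4252, 4873 and 4665 with OVA, and 6177, 5937 and 5992 with agonist. The agonist arrays all lay above the OVA arrays, while OVA and saline overlapped. Agonist minus OVA was 0.40 ± 0.12 (SE, interval 0.13 to 0.66), or 1.32-fold, at an adjusted p of 0.0953, and 0.40 with an adjusted p of 0.124 without the third agonist array. With an intensity trend and robust prior the agonist difference of Gpx3 passed (adjusted p = 0.0486). OVA minus saline was -0.26 (interval -0.52 to 0.01; adjusted p = 0.184). Neither difference was called at the settings used throughout.

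Sod3, the extracellular superoxide dismutase, read 1473, 1462 and 1612 with saline, 2352, 2605 and 1706 with OVA, and 1474, 1586 and 1778 with agonist. The third OVA array lay close to saline and below the third agonist array, and the other OVA arrays lay above everything else. Sod3 in OVA minus saline was 0.53 ± 0.16 (SE, interval 0.15 to 0.91), or 1.44-fold, at an adjusted p of 0.0790, and it passed when the third OVA array was left out (adjusted p = 0.0273), with an intensity trend and a robust prior, or at a threshold of 0.1. Agonist minus OVA was -0.44 (interval -0.82 to -0.07; adjusted p = 0.151), and -0.52 with an adjusted p of 0.136 without the third agonist array.

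Without the third agonist array no further probe set of these genes was called, and several small differences changed sign. Agonist minus OVA then was 0.09 for Gclm, turned from -0.03, -0.29 for Gsr, -0.05 for Hmox1, 0.08 for Txnrd1 and 0.23 for Cat 161877_f_at (adjusted p from 0.352 for Gsr to 0.854 for Hmox1). Agonist minus saline turned sign for Gsr (-0.05) and for both Cat probe sets (0.0025 for 160479_at and 0.06 for 161877_f_at), and was 0.37 for Gclc (adjusted p = 0.691).

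**Figure D2:**
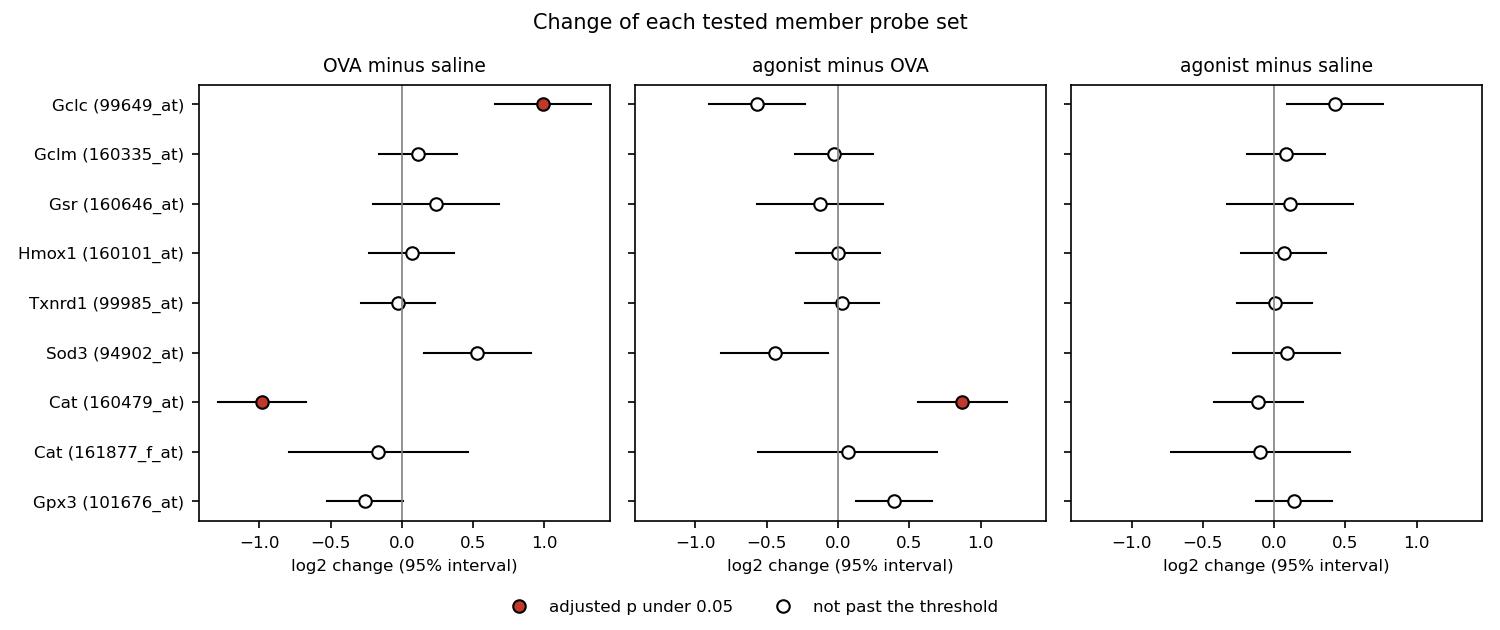
Change of each tested probe set of the listed genes on the log2 scale, as points with 95% intervals from limma, for OVA minus saline, agonist minus OVA and agonist minus saline. The intervals of Gclc (0.65 to 1.33) and Cat 160479_at (-1.29 to -0.67) between OVA and saline lie on opposite sides of 0, and those of Hmox1, Txnrd1 and Gclm include 0 in each comparison.

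As a description over 9 arrays, Gclc and Cat 160479_at moved oppositely (Pearson r = -0.926), Sod3 ran with Gclc (r = 0.862) and against Cat (r = -0.917), and the pair of ligase subunits were weakly related (r = 0.273). The points share their arrays and fall into the 3 groups, so these values repeat the group differences above. The genes whose pattern over all arrays was most like that of Gclc were Pclaf, a factor bound to the replication clamp PCNA (r = 0.983), Ddost, a subunit of the oligosaccharyltransferase (r = 0.980), and Tmed3, a carrier of the early secretory pathway (r = 0.979). Being chosen for this likeness on the same arrays, they share its difference between OVA and saline by construction, and no test is given: Pclaf was 2.16-fold, Ddost 1.88-fold and Tmed3 1.68-fold higher with OVA. Those most like Cat were Rnf167, a ubiquitin ligase (r = 0.993), Kcnk2, a potassium channel (r = 0.992), and Sptan1, a spectrin (r = 0.990). Chosen in the same way, Kcnk2 was 1.74-fold, Sptan1 1.40-fold and Rnf167 1.36-fold lower with OVA.

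The wider pathway was described by 4 lists, which with the genes above hold 70 genes, of which 56 were on the array and 48 were tested, each through its brightest probe set. Between OVA and saline 6 of the 48 rose, 1 fell and 41 were not called, where 4.82% of all 5950 tested genes rose and 4.67% fell. The median change was 0.01 over the 48 genes and -0.08 over all tested genes. Leaving out the first OVA array left 3 calls, and leaving out the second left 4, where 1.02% and 1.32% of all probe sets were called. Between agonist and OVA 1 rose, 4 fell and 43 were not called, where 1.21% of all tested genes rose and 1.53% fell. Those 5 calls became 7 without the third agonist array, 2 without the third OVA array and 0 without any other single array. Over all probe sets 6.7%, 1.63% and 0.0895% to 0.46% were called in the same order. In the fits with 0 calls, 12 to 17 of the 48 genes had an unadjusted limma p under 0.05. With all arrays, 17 of the 48 had one, as had 1450 of all 5950 tested genes. Between agonist and saline none of the 48 passed in limma, where 0.101% of all tested genes were called. An unadjusted limma p under 0.05 was found for 4 of the 48 and for 452 of all 5950 tested genes.

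By role, the glutathione list had 2 of 8 tested genes higher with OVA (Gclc and Glrx) and none lower. The list for removal of peroxide and superoxide had 1 higher (Prdx4) and 1 lower (Cat) of 13. The thioredoxin list had 1 higher of 9 (Msrb1). The list of NRF2 regulators and other NRF2 targets had 2 higher of 18 (Tkt and Me1), and its median was 0.03. With agonist against OVA, Glrx, Prdx4, Tkt and Me1 were lower and Cat was higher.

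Prdx4, the peroxiredoxin of the endoplasmic reticulum, read 209, 213 and 214 with saline, 591, 513 and 378 with OVA, and 224, 225 and 249.3 with agonist. The agonist arrays lay just above saline and far below OVA. It rose 2.29-fold with OVA (1.2 ± 0.16, adjusted p = 0.0109) and was 2.09-fold lower with agonist than with OVA (-1.06 ± 0.16, adjusted p = 0.0356). Agonist minus saline was 0.13 (adjusted p = 0.880), and 0.08 without the third agonist array.

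Me1, the malic enzyme of the cytosol, makes NADPH, the reductant that Gsr and Txnrd1 use. Tkt, transketolase, belongs to the pentose phosphate pathway but makes no NADPH itself. Pgd and Idh1, listed enzymes that also make NADPH, were not called between OVA and saline. By their brightest probe sets they changed by 0.02 (limma adjusted p = 0.971) and 0.12 (limma adjusted p = 0.363). Tkt read 313, 301 and 286 with saline, 632, 669 and 644 with OVA, and 378, 328 and 471 with agonist. Me1 read 219, 200 and 196 with saline, 482, 416 and 422 with OVA, and 248, 242 and 305 with agonist. In both genes the OVA arrays stood clear of all others, and the third agonist array was the highest of its group. Tkt rose 2.16-fold (1.11 ± 0.13, adjusted p = 0.00934) and Me1 2.15-fold (1.10 ± 0.12, adjusted p = 0.00854) with OVA, and both calls held when any single array was left out. With agonist both were 1.67-fold lower than with OVA (adjusted p = 0.0419 for Tkt and 0.0363 for Me1).

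Glrx, glutaredoxin, which uses glutathione to reduce mixed disulfides, read 242, 253 and 239 with saline, 491, 505 and 423 with OVA, and 265, 268 and 357 with agonist. It rose 1.93-fold with OVA (0.95 ± 0.14, limma adjusted p = 0.0123), a call that ended without the first or the second OVA array (adjusted p up to 0.0592). The shares of all probe sets called in those fits are given with Gclc. Agonist minus OVA was -0.68 ± 0.14, a fall that passed the test (adjusted p = 0.0475). The agonist calls of Tkt, Me1 and Glrx each ended without any one array other than the third agonist array (adjusted p up to 0.141, 0.131 and 0.168). That of Prdx4 ended without any saline array, the first or second OVA array, or the first or second agonist array (adjusted p up to 0.112). Without the third agonist array all 4 passed, at limma adjusted p values of 0.0215 (Prdx4), 0.00614 (Tkt), 0.00905 (Me1) and 0.00944 (Glrx). Over all probe sets, 0.0895% to 1.63% were called between agonist and OVA in the fits that ended these calls. The share was 6.7% without the third agonist array and 2.75% with all arrays.

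Msrb1, a methionine sulfoxide reductase, followed another course. It read 325, 324 and 347 with saline, 562, 682 and 595 with OVA, and 783, 492 and 830 with agonist. OVA minus saline was 0.88 ± 0.20 (1.84-fold, limma adjusted p = 0.0348), a call that ended without any single saline or OVA array (adjusted p up to 0.1). In those fits 1.02% to 7.61% of all probe sets were called. Agonist minus OVA was 0.16 (adjusted p = 0.651), and 0.02 without the third agonist array. Agonist minus saline was 1.04 ± 0.20, or 2.06-fold, at an adjusted p of 0.257, which became 0.0140 without the second agonist array and 0.340 without the third. Neutrophil markers, summed over the list, were likewise higher on agonist arrays 1 and 3 (5990 and 6381) than on agonist array 2 (2130), with 1828 to 1932 in saline and 3304 to 4342 in OVA. Of the 8 tested neutrophil genes, 1 rose with OVA (Lcn2, 4.62-fold by its brighter probe set) and none fell. The change with OVA was positive for 4 of the 8, with a median of -0.06 (log2). Ngp and Mmp8 were below the limit everywhere, and the part of the neutrophil genes in the values of Msrb1 was not tested.

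**Figure D3:**
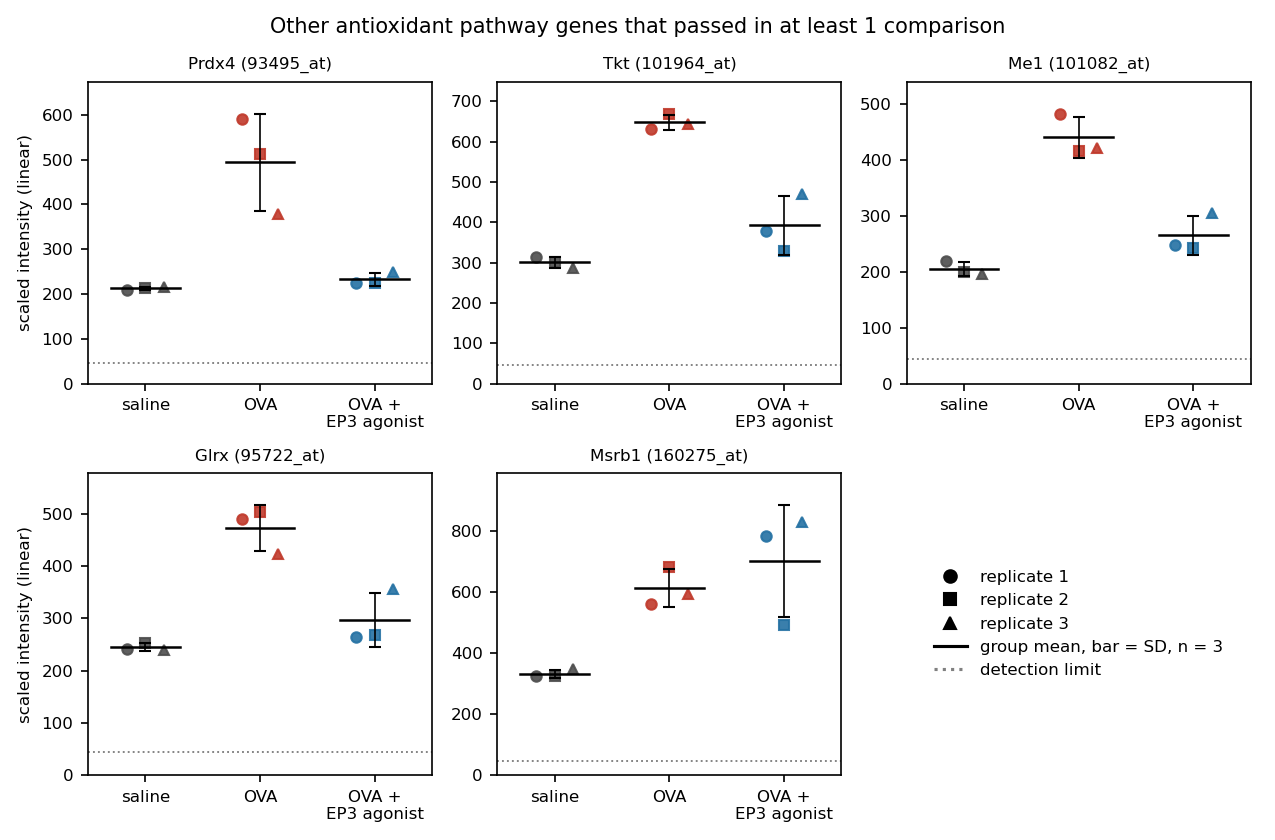
Scaled intensity (linear axis) of the 5 called pathway genes outside the listed ones, Prdx4, Tkt, Me1, Glrx and Msrb1, on the 9 arrays. Lines are group means, bars the SD and the dotted line the detection limit. For the first 4 the OVA arrays lie above all others, while the agonist arrays of Msrb1 split into 783 and 830 against 492.

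Gss, which completes glutathione synthesis, was read in opposite directions by its probe sets, and was picked out for that after its values were seen. The brightest, 101425_at, read 184, 172 and 191 with saline, 166, 71.5 and 2.82 with OVA, and 163, 170 and 98.9 with agonist, and was not called (OVA minus saline adjusted p = 0.242). The other, 162246_r_at, read 6.70, 39.7 and 5.95 with saline, all below the limit of 44.7, and 165, 172 and 155 with OVA. That is at least 3.66-fold higher (adjusted p = 0.0208), and the call ended without saline array 1 or 3 or the first or second OVA array (adjusted p up to 0.0768). No direction is given for Gss.

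**Figure D4:**
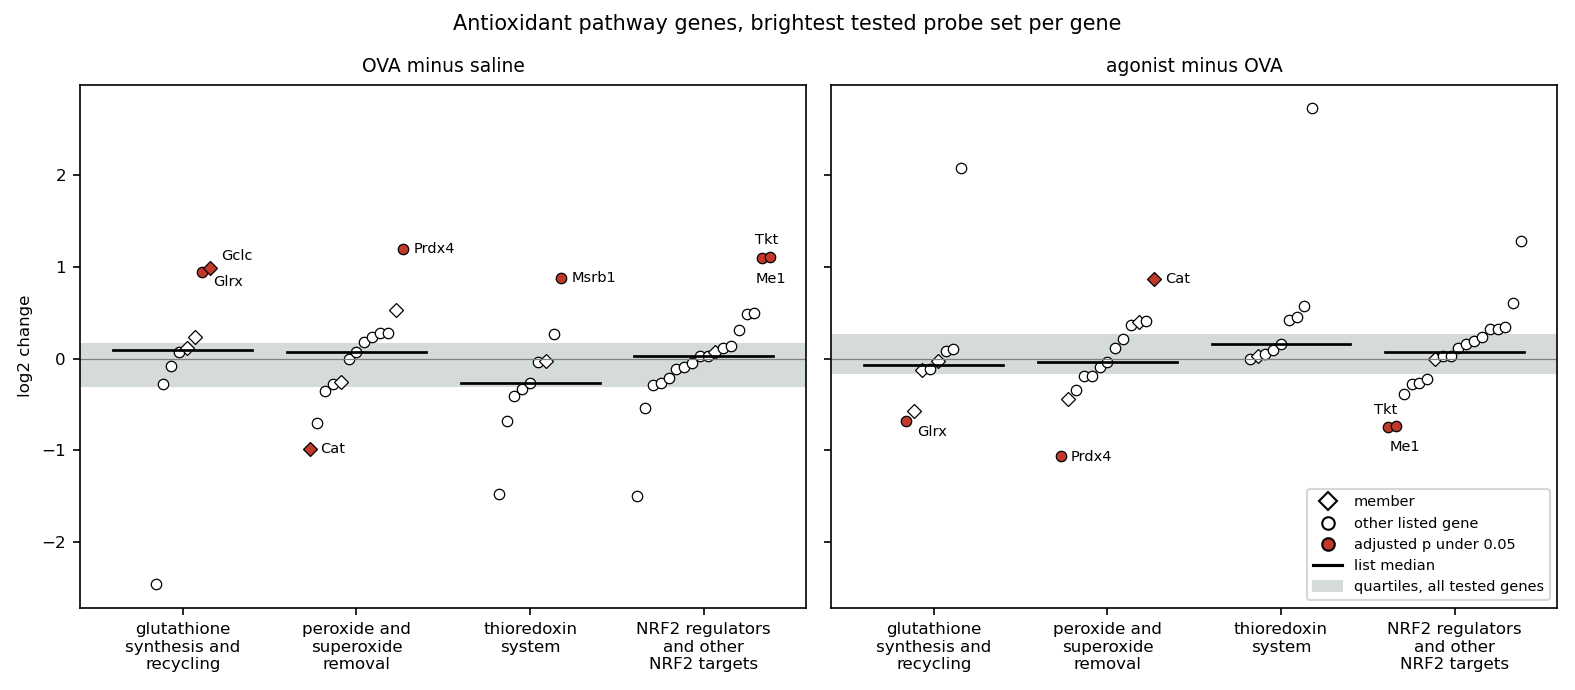
Change of each tested pathway gene on the log2 scale, by list, for OVA minus saline and agonist minus OVA, with filled points for calls at an adjusted p under 0.05. Of the 48 genes, 7 are called in the first comparison and 5 in the second, and the rest lie on both sides of 0.

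Summed markers of several cell types were higher on OVA than on saline arrays. Not all of these lists fell with agonist against OVA. Their median change was then -0.05 (log2) for smooth muscle, with none of 7 called, and 0.45 for neutrophil markers. With OVA, 8 of 11 tested macrophage and dendritic cell markers rose and 1 (Lyz2) fell. Their summed level was 12630 to 14370 with saline, 16700 to 18010 with OVA and 14410 to 17150 with agonist, with Marco below the limit everywhere. Lyz2 (means 5587, 4163 and 6168) and Cd74 (5339, 7163 and 6072, not called) made up much of that sum. With agonist against OVA, Lyz2 was called higher and C1qa and C1qb lower. All 4 tested goblet cell markers rose, with the sums given above. B and plasma cell markers summed to 2099 to 2592 with saline, 3522 to 4129 with OVA and 1808 to 3321 with agonist, with 1 of 6 higher (Jchain, 8.66-fold, adjusted p = 0.0261) and Cd22 below the limit. Much of that rise was Jchain, with a mean of 160 with saline and 1419 with OVA. The median change with OVA over the 6 was 0.14 (log2), positive for 4. Smooth muscle markers summed to 5043 to 5730, 6626 to 8003 and 5791 to 6347 in the same order, with 3 of 7 higher and none below the limit. Eosinophil markers summed to 95.4 to 134, 299.6 to 514 and 93.6 to 146, with 1 of 2 tested higher and Epx, Prg2, Prg3 and Il5ra below the limit. Most of that rise was the called gene, Alox15, which was below the limit on every saline array. It read 213, 273 and 106 with OVA, and the other tested gene, Csf2rb2, was not called (limma adjusted p = 0.0521). Neutrophil sums are given beside Msrb1. They hold 1 called gene, Lcn2, which read 497, 548 and 572 with saline and 2608, 2946 and 2000 with OVA. The median change of the neutrophil list was -0.06 (log2). On every OVA array these 6 sums were above those of every saline array, as were Gclc, Prdx4, Tkt, Me1 and Glrx, and their part in those results was not tested.

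The levels of Cat ran beside lists that were lower with OVA. Red cell markers summed to 9653 to 11110 with saline, 6178 to 6782 with OVA and 8694 to 10370 with agonist, with 2 of 5 lower and none higher. Endothelial markers summed to 13230 to 13690, 10330 to 10940 and 13260 to 13710 in the same order, with 6 of 10 lower. Alveolar type 1 cell markers summed to 13620 to 15170, 10110 to 11200 and 13320 to 14580, with 4 of 5 lower, and club cell markers to 20650 to 24780, 15040 to 17950 and 21290 to 23440, with 3 of 5 lower. Heart muscle markers summed to 4504 to 5505, 3412 to 4201 and 4500 to 5216, with 5 of 9 lower and none higher. No marker of these 5 lists lay below the limit on every array. In each of the 5 lists, and for the adipose markers given with Gpx3 (2 of 4 lower), the OVA arrays did not overlap the saline or the agonist arrays, and the part of these cells in the Cat values was not tested.

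For Gpx3, adipose markers summed to 947 to 1073 with saline, 836 to 912 with OVA and 1327 to 1617 with agonist, with 3 of 4 tested markers higher between agonist and OVA. Retn and Slc2a4 lay below the limit on every array. The part of adipose tissue in the Gpx3 values was not tested.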

How the data were processed

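The deposited values are array intensities on a linear scale, 12488 probe sets per array with 16.4% to 18.7% below 0; the sources used here do not name the scanner software or scaling of the authors. Each array was multiplied by a factor (0.741 to 1.29) to equalise its 2% trimmed mean, floored at the 20th percentile (3.10) and put on a log2 scale. After 66 controls were left out, probe sets with at least 3 of 9 arrays above the 40th percentile were tested (7920). limma 3.58.1 in R 4.3.3 fitted all 9 arrays with a mean per group (6 residual and 1.69 prior degrees of freedom), two-sided, with Benjamini-Hochberg adjustment over all of them and a threshold of 0.05; the script was tested on simulated data. Probe sets were named by the platform annotation: 10833 had 1 symbol, 396 several and 1193 none, and 10817 matched RefSeq by gene ID. A gene was counted through its brightest tested probe set. The genes and lists were chosen with earlier results of these data known. Text names all listed genes, pathway genes that passed a comparison, and the 3 nearest patterns to each called gene. Alternatives covered scaling, floor, filter, variance model, arrays in the fit, replicate number and threshold. Precision is limited by 3 arrays a group.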

Additional observations from a re-analysis of the deposited data

How the results depend on the processing

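Between OVA and saline the 2 calls among the listed genes became 0 when only changes of at least 2-fold counted and 0 to 3 with single arrays left out. The 7 pathway calls became 11 with a filter at the 60th percentile, 13 with an intensity trend and robust prior and 17 at an adjusted p of 0.1. They became 3 at 2-fold and 3 to 9 with single arrays left out. Over all probe sets the 9.49% called became 16.5% with that filter, 12.1% with that prior and 1.02% to 10.9% with single arrays left out. Between agonist and OVA the 1 call became 2 (60th percentile), 3 (trend), 3 (adjusted p of 0.1), 0 (2-fold), 0 (only the 6 arrays compared) and 0 to 1 with single arrays left out. The 5 pathway calls became 8, 8, 10, 1, 0 and 0 to 7 in the same order. Over all probe sets the 2.75% called became 8.26% (60th percentile), 5.72% (trend) and 0.197% (only the 6 arrays compared). With single arrays left out it was 0.0895% to 6.7%. Between agonist and saline, 0 listed genes were called under any alternative run, and 0 to 1 pathway genes with single arrays left out. Where a count was 0, 3 listed probe sets (OVA and saline), 3 to 4 (agonist and OVA) or 0 to 1 (agonist and saline) had an unadjusted limma p under 0.05. With all arrays, 2302 of all 7920 tested probe sets had one (OVA and saline), 1919 (agonist and OVA) and 611 (agonist and saline). The labels do not say that a replicate number pairs arrays. Deviations of same-numbered arrays from their group means correlated at -0.14 to 0.17, over 0.1 in 2 of 9 pairs. Whether same-numbered arrays shared a batch was not tested. With the replicate number as a block the counts in the order above were 0, 2, 0 and 0, and over all probe sets 50 in place of 752 and 14 in place of 218; which share of this loss is due to fewer degrees of freedom was not tested.

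Of 855 recomputed changes of single probe sets, 751 kept direction and side of the threshold, 71 lost a call, 8 gained one and 25, none of a called value, changed sign. Between OVA and saline these were Txnrd1 (0.00602 with equal medians) and, with arrays left out, Hmox1 (-0.042 to 0.154), Cat 161877_f_at (-0.263 to 0.0204) and Txnrd1 (-0.0708 to 0.0512). Between agonist and OVA they were Hmox1 (0.00227) and Txnrd1 (-0.000969) with quantile normalization, Gclm (0.0238) with array weights and, with arrays left out, Hmox1 (-0.0864 to 0.11), Gclm (-0.0921 to 0.0852), Cat 161877_f_at (-0.243 to 0.228) and Txnrd1 (-0.0604 to 0.0798). Between agonist and saline they were Txnrd1 (-0.00103 with quantile normalization, -0.0153 with array weights) and, with arrays left out, Cat 160479_at (-0.183 to 0.0025), Gsr (-0.0508 to 0.228), Cat 161877_f_at (-0.409 to 0.0623) and Txnrd1 (-0.0853 to 0.0787). The cause of these turns was not tested.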
